A study of Mus musculus with 6 samples.

Results

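The genes described here are 10 members of the Wnt and beta-catenin programme: the DNA-binding factors Tcf7, Lef1, Tcf7l1 and Tcf7l2, the feedback inhibitors Axin2, Nkd1 and Rnf43, and the target transcription factors Sp5, Cdx1 and Cdx2. They were chosen by name, with earlier results of these data known. Probe sets with a single gene symbol in the platform annotation were used, and the one brightest on average over the 6 arrays stands for its gene. Of the 10 genes, 9 had such a probe set among 18193 genes in all, and Tcf7 was not analysed here. The 9 measured members had 19 probe sets.

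RNA came from mouse embryonic stem (ES) cells, pluripotent cells of the early embryo, and was hybridised to Affymetrix arrays, 1 per sample. The 3 haploid lines, which carry 1 set of chromosomes, were HAP1 at passage 24 and HAP2 at passage 21, both of strain F1 CBAxB6, and HTG1 at passage 11, of strain mixed transgenic. The 3 diploid control samples were labelled male, of strain 129Sv in replicates 1 and 2 and of strain 129 in replicate 3, so strain and ploidy cannot be told apart. The labels call both groups biological triplicates but do not say whether the diploid samples are separate lines. The p-values weigh a group difference against the spread within these groups of samples. For the diploid samples that spread may differ from the spread between separate lines. All cultures were grown in 2i medium and taken on day 2 after passaging. The transgene of HTG1, the passage of the diploid samples and the share of cells still haploid at harvest are not given in the sources used here.

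In Wnt signalling, the kinase GSK3 marks beta-catenin for destruction, and a Wnt ligand bound to its receptors stops this, so that beta-catenin accumulates, enters the nucleus and acts on genes bound by Tcf/Lef factors. The 2i medium contains an inhibitor of MEK and one of GSK3. The GSK3 inhibitor acts at the step that a Wnt ligand controls, and it was present in the haploid and the diploid cultures alike. The comparison is therefore one between cultures that all received it, and cultures without it were not analysed here. In ES cells Tcf7l1 is mainly a repressor of pluripotency genes, and stabilised beta-catenin relieves that repression.

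Tcf/Lef factors bind the DNA word CTTTG followed by 2 bases that are A or T. The windows of 250 bases before the start sites of the members were searched on both strands for CTTTGAA, for CTTTGAT, for CTTTGTA and for CTTTGTT. The windows came from RefSeq (GRCm38.p6), which held 13 for 8 of the 9 measured members. No window was available for Cdx1, so Cdx1 was not searched. A match was present in 3 of these 13 windows, and in 14.8% of all 32851 windows. The 3 windows are shown because they hold the matches: 1 belongs to the target Sp5 and 2 to Tcf/Lef genes. They run from 5′ to 3′ up to the base before the start site, with the matches in capitals.
Sp5, chr2:70474673-70474922, plus strand: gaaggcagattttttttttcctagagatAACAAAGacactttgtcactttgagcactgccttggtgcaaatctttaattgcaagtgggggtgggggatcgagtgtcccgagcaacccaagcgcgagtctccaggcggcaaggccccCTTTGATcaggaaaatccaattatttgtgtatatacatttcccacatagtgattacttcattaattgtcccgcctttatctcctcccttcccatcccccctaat
Tcf7l2, the downstream of 2 listed starts, chr19:55895071-55895320, plus strand: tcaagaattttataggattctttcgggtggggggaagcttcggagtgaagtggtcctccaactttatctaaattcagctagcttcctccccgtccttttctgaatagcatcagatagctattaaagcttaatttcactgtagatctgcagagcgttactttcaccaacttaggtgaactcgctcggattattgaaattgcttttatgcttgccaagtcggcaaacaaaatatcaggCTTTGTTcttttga
Lef1, the most downstream of 4 listed starts, chr3:131156044-131156293, plus strand: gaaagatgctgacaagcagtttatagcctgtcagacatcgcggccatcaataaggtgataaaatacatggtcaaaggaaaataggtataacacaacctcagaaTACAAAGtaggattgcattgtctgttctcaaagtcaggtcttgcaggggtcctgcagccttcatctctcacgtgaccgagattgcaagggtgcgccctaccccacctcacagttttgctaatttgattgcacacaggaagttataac
The Sp5 window held 2 matches, AACAAAG (which reads CTTTGTT on the other strand) with its first base 222 bases before the start and CTTTGAT at 104 bases. The Tcf7l2 window held CTTTGTT at 14 bases and the Lef1 window TACAAAG (which reads CTTTGTA on the other strand) at 147 bases. These letter matches describe the sequence, and binding was not measured.

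Markers of the labelled cell type were bright on all arrays: the mean log2 level of 8 ES cell markers was 12.92 to 12.96 in the diploid and 13.07 to 13.19 in the haploid arrays. Of these 8, 3 rose (37.5%) and none fell, against 7.92% and 6.96% of all genes. Those that rose were the pluripotency factors Klf4, by 0.68 (limma adjusted p = 0.0054), Nanog, by 0.47, and Pou5f1, by 0.40 (log2, limma adjusted p = 0.0246). The other 5 did not pass, and 3 of the 8 markers had a negative difference. The median difference of the 8 was 0.19 (log2), against -0.03 over all genes. Klf4 passed in all 15 alternatives, while Pou5f1 lost its call when any 1 array other than diploid replicate 1 was left out (0.0503 to 0.0874) and with the chromosome shift taken out (0.0653). Fibroblast markers were lower in the haploid lines, with 2 of 8 passing, Col1a2, which fell by 2.62, and Acta2, which fell by 2.04 (log2), and with the groups not overlapping for 6 of 8. Over all genes 6.96% fell, and 20.2% had groups that did not overlap with the haploid values lower. Acta2 differed by -0.46 and did not pass without probe sets that may read several genes. The collagen genes Col1a1 and Col1a2 were above the lower quartile of the arrays everywhere. Col3a1, another collagen gene, was highest in diploid replicate 1, above its 5.17 and 4.90 in diploid replicates 2 and 3, and stood at 4.24, 3.84 and 3.94 in HAP1, HAP2 and HTG1, below that quartile in all 3 haploid lines, and Lum was near or below it. The mean log2 level of the 8 markers was 6.53 to 7.57 in the diploid arrays, highest in replicate 1, and 5.50 to 5.76 in the haploid arrays. The part of the ES cell and fibroblast markers in the differences of Cdx1, Tcf7l2, Tcf7l1 and the pathway genes was not tested. Of 7 primitive streak and mesoderm markers Gsc rose by 1.82 and Tbx6 fell by 0.38, and of 8 primitive endoderm markers Amn rose by 0.88 and Col4a1 fell by 1.08 (log2). These made up 28.6% of the streak and mesoderm list and 25% of the endoderm list, against 14.9% of all genes. Col4a1 did not pass without diploid replicate 2 (limma adjusted p = 0.0564) and differed by -0.75 with the shift of its chromosome taken out. In cultures measured in bulk, fewer cells of a type and less RNA per cell cannot be told apart.

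In the haploid lines 3 of the 9 measured members rose and none fell. They were the target gene Cdx1, at 1.83-fold, and the Tcf factors Tcf7l2, at 1.77-fold, and Tcf7l1, at 1.45-fold. The feedback inhibitors Axin2, Nkd1 and Rnf43, the direct target Sp5, and Lef1 and Cdx2 did not pass the test, an adjusted p of 0.05 in limma over all 18193 genes. Over all genes 14.9% passed, of which 1441 (7.92%) rose and 1266 (6.96%) fell, or 1150 and 1551 with the median shift of each chromosome taken out. The median difference of the 9 members was 0.18 (log2, haploid minus diploid), against -0.03 over all genes. For the same 3 members the haploid and diploid values did not overlap, a separation that held for 37.9% of all genes, 17.7% with the haploid values higher and 20.2% with them lower.

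**Figure D1:**
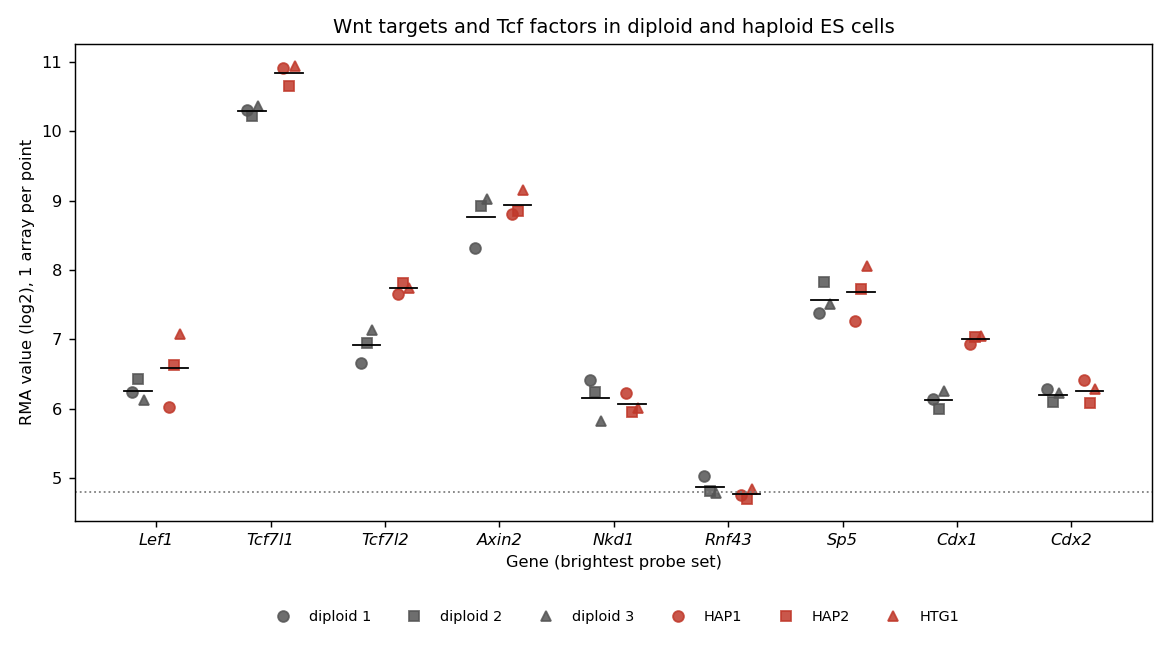
RMA value (log2) of the 9 measured members on each of the 6 arrays; grey points are diploid, red points haploid, the short bars are group means and the dotted line marks 4.80, the lowest of the arrays' lower quartiles. The 3 red points lie above the 3 grey points for Tcf7l1, Tcf7l2 and Cdx1 and the groups overlap for the other 6 members.

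Tcf7l2, a Tcf factor with activating and repressing forms, stood at 6.66, 6.95 and 7.14 in diploid replicates 1 to 3 and at 7.66, 7.81 and 7.75 in HAP1, HAP2 and HTG1 (log2). Every haploid value lay above every diploid value. The difference was 0.83 ± 0.14 on the log2 scale (SE, n = 3 in each group, limma adjusted p = 0.0108). It still passed when each of the 6 arrays was left out in turn, with limma adjusted p from 0.0169 to 0.0433. The 4 probe sets of Tcf7l2 did not move together. A dimmer one, at a mean of 5.66, differed by 0.97 (log2, limma adjusted p over all probe sets = 0.031), while the other two, at means of 5.32 and 5.02, differed by -0.15 and 0.18 and had overlapping groups. Averaged over its probe sets Tcf7l2 differed by 0.46 (log2) and still passed. Which transcripts of the gene each probe set reads was not given in the files.

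Tcf7l1, the Tcf factor best known as a repressor in ES cells, stood at 10.31, 10.23 and 10.37 in the diploid samples and at 10.91, 10.66 and 10.95 in HAP1, HAP2 and HTG1 (log2). The groups did not overlap. The difference was 0.54 ± 0.11 (log2 ± SE, n = 3 in each group, limma adjusted p = 0.0214). It did not pass without diploid replicate 2, diploid replicate 3, HAP1 or HTG1, with limma adjusted p from 0.0528 to 0.0779. Its size depended on the probe set. The second probe set had almost the same mean, 10.56 against 10.57, and differed by only 0.19 (log2, limma adjusted p over all probe sets = 0.252), although its groups did not overlap either. With the mean of both the difference was 0.36 and passed. The gene lies on chromosome 6, where diploid replicate 1 stood 0.30 (log2) above the 6-array mean of each gene, in the median over 423 genes, against -0.14 and -0.11 in diploid replicates 2 and 3. With that shift taken out Tcf7l1 differed by 0.56 (limma adjusted p = 0.0461).

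Lef1, an activating factor that is also a target of the pathway, stood at 6.24, 6.42 and 6.13 in the diploid samples and at 6.03, 6.63 and 7.08 in HAP1, HAP2 and HTG1 (log2). HAP1 was the lowest and HTG1 the highest of the 6 arrays. The difference was 0.32 (log2, 95% interval -0.28 to 0.91, limma adjusted p = 0.43), and it was 0.59 without HAP1 and 0.07 without HTG1. The SD of the haploid values was 0.53, against 0.15 among the diploid values.

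**Figure D2:**
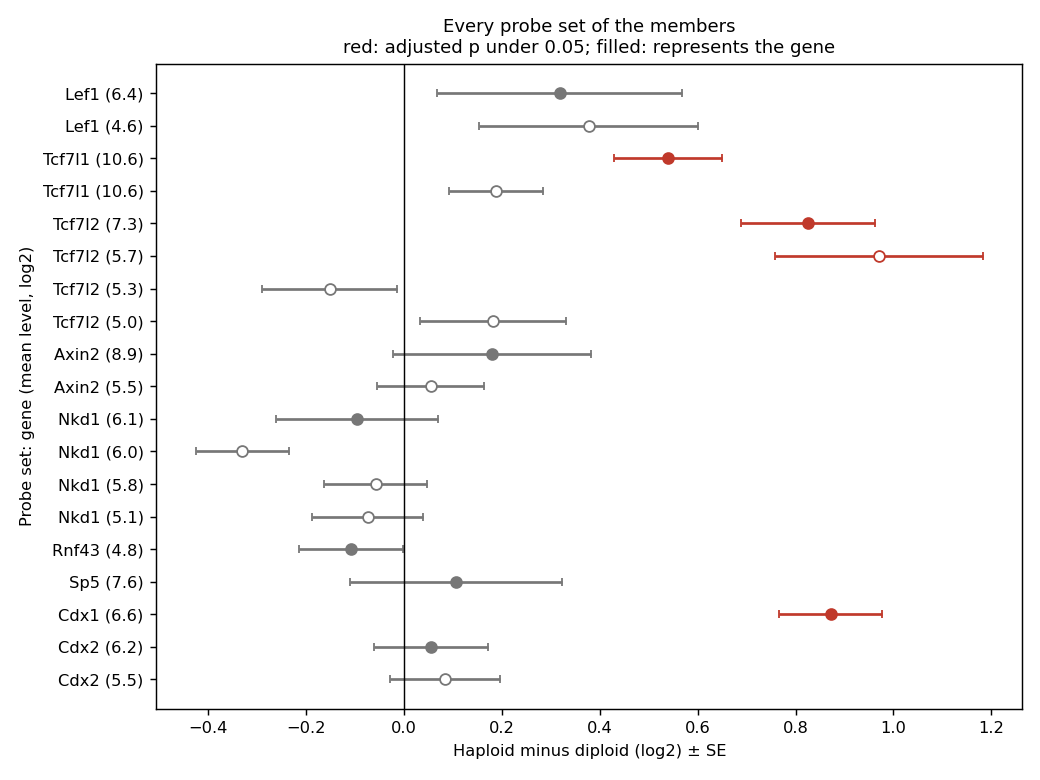
Difference between haploid and diploid arrays (log2) with its SE for each of the 19 probe sets of the 9 members; the number in brackets is the probe set's mean level (log2), filled points represent the gene, and red points passed an adjusted p of 0.05 over all probe sets. Red points belong to Cdx1, Tcf7l1 and 2 of the 4 probe sets of Tcf7l2.

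Cdx1, a caudal homeobox gene of the posterior body axis and intestine that is directly activated by Wnt signals, stood at 6.15, 5.99 and 6.26 in the diploid samples and at 6.93, 7.03 and 7.05 in HAP1, HAP2 and HTG1 (log2). The haploid values had an SD of 0.06 and all lay above the diploid values. The difference was 0.87 ± 0.10 (log2 ± SE, n = 3 in each group, limma adjusted p = 0.00409). It also passed with each array left out in turn, at 0.80 to 0.93 (log2). The gene has 1 probe set with a single symbol.

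Cdx2, its relative, which also specifies the trophoblast, stood at 6.29, 6.10 and 6.23 in the diploid samples and at 6.41, 6.09 and 6.28 in HAP1, HAP2 and HTG1 (log2). The groups overlapped, and the difference was 0.05 (95% interval -0.22 to 0.33, limma adjusted p = 0.784). The interval for Cdx1 was 0.63 to 1.12, and the difference between the changes of both genes was not tested. Of 10 trophoblast markers, 1 rose, Gata3, by 1.40 (log2), and 2 fell, the keratins Krt8, which fell by 2.21, and Krt18, which fell by 1.23. Together they were 30% of the list, against 14.9% of all genes. Gata3 did not pass without diploid replicate 3 (limma adjusted p = 0.0765), and Krt18 lost its call when any 1 array other than HAP1 was left out (0.0539 to 0.112). The mean log2 level of the 10 markers was 7.46 to 7.70 in the diploid and 7.35 to 7.74 in the haploid arrays.

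Sp5, a zinc finger factor induced directly by beta-catenin, stood at 7.38, 7.83 and 7.51 in the diploid samples and at 7.26, 7.73 and 8.05 in HAP1, HAP2 and HTG1 (log2). HAP1 was again the lowest and HTG1 the highest array. The difference was 0.11 (95% interval -0.41 to 0.62, limma adjusted p = 0.775), and its sign turned to -0.08 without HTG1.

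Axin2, a scaffold of the destruction complex and a widely used readout of the pathway, stood at 8.32, 8.93 and 9.03 in diploid replicates 1 to 3 and at 8.80, 8.86 and 9.16 in HAP1, HAP2 and HTG1 (log2). Diploid replicate 1 was the lowest, and the other 5 arrays lay between 8.80 and 9.16. The difference was 0.18 (95% interval -0.30 to 0.66, limma adjusted p = 0.585), and it was -0.04 without diploid replicate 1. In diploid replicate 1 the mean log2 level of 8 fibroblast markers was 7.57, against 6.53 and 6.63 in the other diploid samples, and its part in the value of Axin2 was not tested.

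Nkd1, which binds Dishevelled and limits signalling, stood at 6.41, 6.24 and 5.82 in the diploid samples and at 6.22, 5.96 and 6.01 in HAP1, HAP2 and HTG1 (log2). The groups overlapped, with a difference of -0.10 (95% interval -0.49 to 0.30, limma adjusted p = 0.734). Of its 4 probe sets the second brightest differed by -0.33 with groups that did not overlap (limma adjusted p over all probe sets = 0.069). Rnf43, a ubiquitin ligase that removes Frizzled receptors from the cell surface, stood at 5.03, 4.81 and 4.79 in the diploid samples and at 4.75, 4.70 and 4.85 in the haploid lines. These values lie at the lower quartile of the arrays, 4.80, where a change is hard to detect. The difference was -0.11 (95% interval -0.35 to 0.14, limma adjusted p = 0.518).

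Axin2 and Rnf43 lie on chromosome 11 and Nkd1 on chromosome 8, whose genes were lower as a group in the haploid lines, with median differences of -0.27 and -0.32 (log2). With these chromosome shifts taken out the differences became 0.45 for Axin2, 0.16 for Rnf43 and 0.23 for Nkd1 (log2), so the sign turned for Rnf43 and Nkd1. None of the 3 passed, with limma adjusted p of 0.166, 0.329 and 0.359.

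By Pearson's r over the 6 arrays, among genes above the median level, the patterns most like that of Cdx1 were those of Prelid1 (0.998), Gsta3 (0.994) and Bak1 (0.994), and those most like Tcf7l2 were Psmb7 (0.999), Hspb1 (0.997) and Ppm1g (0.997). These values are a description, since the 6 arrays fall into 2 groups. They do not measure the size of a change: Prelid1 differed by only 0.18 (log2, limma adjusted p = 0.18) and did not pass. Averaged over its probe sets Prelid1 differed by -0.01.

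Among the haploid lines, the transgenic HTG1 stood above HAP1 and HAP2 for 6 of the 9 members and was the highest of all 6 arrays for 5 of them, Lef1, Tcf7l1, Axin2, Sp5 and Cdx1. The shares of all genes with these orders were not counted, so the counts cannot be called particular to the members. The median difference of HTG1 from the mean of HAP1 and HAP2 was 0.12 for the members (log2), against -0.01 over all genes. In the contrast of HTG1 with the mean of HAP1 and HAP2, where the lone HTG1 array is assumed to vary like the others, no member passed in limma, against 0.374% of all genes. The unadjusted p was under 0.05 for 1 of the 9, against 9.17% of all genes. That member was Lef1, with a difference of 0.75 ± 0.27 (log2, SE, limma adjusted p = 0.474). Sp5 differed by 0.56 ± 0.26 (limma adjusted p = 0.62). The cyclin gene Ccnd1 (1.51) and Myc (1.15, log2), named after their values were seen, were also higher in HTG1 without passing. Id2 (-1.12) and Tfcp2l1 (-0.64, log2), picked for this contrast in the same way, were lower in HTG1 without passing. Over the 20 other beta-catenin targets described below, the median HTG1 difference was -0.05 (log2), against -0.01 over all genes.

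The pathway around the members comprised 118 measured genes in 9 lists. Of these 9 rose and 8 fell, together 14.4%, against 14.9% of all genes, and the median difference was -0.01 (log2), against -0.03 over all genes. Leaving out diploid replicate 2 gave 4 higher and 2 lower genes, leaving out diploid replicate 3 gave 3 and 3, leaving out HAP2 gave 3 and 4, and leaving out HAP1 gave 7 and 4. Leaving out HTG1 gave 6 and 6, and leaving out diploid replicate 1 gave 9 and 12.

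**Figure D3:**
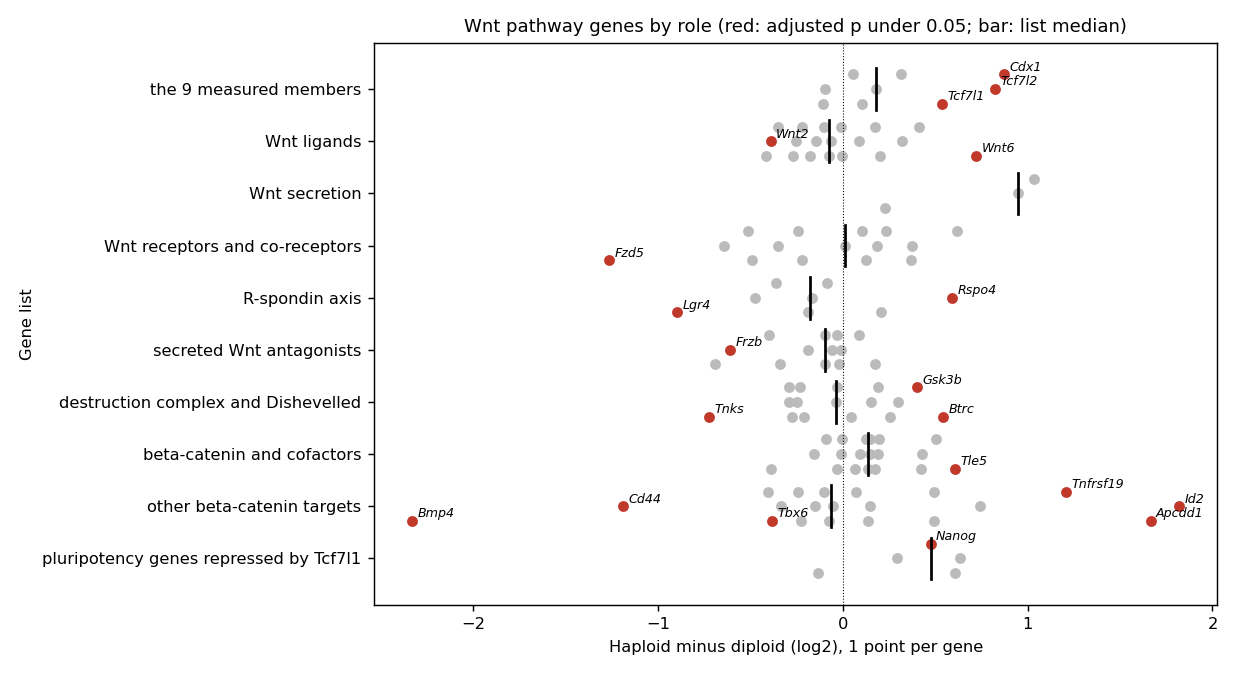
Difference between haploid and diploid arrays (log2) for each measured gene, by list; red, named points passed an adjusted p of 0.05, grey points did not, and the bar is the list median. Red points lie on both sides of 0 among the ligands, the R-spondin axis, the destruction complex list and the other targets.

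Of 19 Wnt ligands 1 rose and 1 fell. Wnt6 stood at 6.42, 6.82 and 6.80 in the diploid samples and at 7.38, 7.34 and 7.47 in the haploid lines, 1.65-fold higher (limma adjusted p = 0.0148). The mean of all its probe sets differed by 0.46 (log2, limma adjusted p = 0.108). Wnt2 fell by 0.39 near the lower quartile of the arrays (limma adjusted p = 0.0433) and lost its call when any 1 of the 6 arrays was left out (0.0651 to 0.131), with a further quantile normalization (0.0595), with the chromosome shift taken out (0.0698) and with every probe set tested (0.052). Wnt3a, a ligand that activates beta-catenin, differed by -0.25 (limma adjusted p = 0.123), turning to 0.02 with the chromosome shift taken out.

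Of the 3 genes of Wnt secretion and ligand removal none passed. Notum, a secreted enzyme that strips the lipid from Wnt ligands and a target of the pathway, stood at 8.54, 9.71 and 9.68 in the diploid samples and at 9.62, 10.88 and 10.29 in HAP1, HAP2 and HTG1 (log2, limma adjusted p = 0.165). Diploid replicate 1 was the lowest array, as for Axin2. Notum lies on chromosome 11, and its difference went from 0.95 to 1.22 (log2, limma adjusted p = 0.085) with the chromosome shift taken out. Wls, the carrier of Wnt ligands to the surface, stood at 5.68, 7.34 and 6.94 in the diploid samples and at 7.50, 7.55 and 8.02 in the haploid lines (limma adjusted p = 0.132). The acyltransferase Porcn, on the X chromosome, differed by 0.23 (limma adjusted p = 0.387), and by -0.54 with the chromosome shift taken out. Genes of the X chromosome above the median level had a median difference of 0.77 (log2, haploid minus diploid).

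Of 15 receptors and co-receptors 1 fell and none rose. Fzd5, a Frizzled receptor, stood at 10.82, 10.85 and 10.95 in the diploid samples and at 9.35, 9.62 and 9.85 in HAP1, HAP2 and HTG1, 2.4-fold lower (log2 -1.27 ± 0.14, SE, n = 3 in each group, limma adjusted p = 0.00327). The groups did not overlap. Averaged over its probe sets Fzd5 differed by -0.76 and passed. Fzd7, another Frizzled receptor, differed by -0.49 (limma adjusted p = 0.15), and the co-receptor Lrp6 by 0.11 (limma adjusted p = 0.607).

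In the R-spondin axis of 8 genes 1 rose and 1 fell. Lgr4, the R-spondin receptor that shields Frizzled receptors from Rnf43 and Znrf3, had a diploid mean of 10.89 ± 0.14 (SD, n = 3) and stood at 9.60, 10.27 and 10.11 in HAP1, HAP2 and HTG1, 1.86-fold lower (limma adjusted p = 0.0215). It did not pass without diploid replicate 2 (0.0764) or 3 (0.0878), and averaged over its probe sets it differed by -0.59. The ligand Rspo4 rose by 0.59 from a diploid mean under 4.80 and did not pass without diploid replicate 1 or 3, nor in the absence of HAP1 or of HAP2 (limma adjusted p = 0.0648 to 0.105). Znrf3, the partner of Rnf43, differed by 0.21 (limma adjusted p = 0.465). It lies on chromosome 11 and differed by 0.48 (limma adjusted p = 0.113) with the chromosome shift taken out.

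Of 13 secreted antagonists 1 fell, Frzb, by 0.61, to haploid values under 4.80; it did not pass without diploid replicate 2 (limma adjusted p = 0.0654) or averaged over its probe sets (0.125). Of 16 genes of the destruction complex and Dishevelled 2 rose and 1 fell. The F-box protein Btrc, which delivers beta-catenin to the proteasome, rose 1.46-fold (limma adjusted p = 0.015), but averaged over its probe sets it differed by 0.10, and it did not pass without diploid replicate 2 (0.0601) or HAP2 (0.053). Gsk3b, which encodes a form of the kinase inhibited in these cultures, stood at 9.77, 9.85 and 9.63 in the diploid samples and at 10.18, 10.16 and 10.11 in the haploid lines, 1.32-fold higher (limma adjusted p = 0.0355). Its call was lost when any 1 of the 6 arrays was left out (0.0633 to 0.119), with the chromosome shift taken out (0.0897), with a further quantile normalization (0.0524) and averaged over its probe sets (0.082). Tnks, a tankyrase that marks Axin for degradation, fell 1.65-fold (limma adjusted p = 0.0274). It lies on chromosome 8 and differed by -0.39 (limma adjusted p = 0.133) with the chromosome shift taken out and by -0.41 averaged over its probe sets. The call was also lost when diploid replicate 2, diploid replicate 3, HAP1 or HAP2 was left out (limma adjusted p = 0.0539 to 0.0934).

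Beta-catenin itself, Ctnnb1, stood between 13.52 and 13.68 on all 6 arrays, with a difference of -0.03 (log2, 95% interval -0.24 to 0.18, limma adjusted p = 0.836). Of the 19 genes in its list of cofactors 1 rose, the short Groucho-family protein Tle5, 1.53-fold (limma adjusted p = 0.0177). Tle5 did not pass without diploid replicate 2 (0.0655) or 3 (0.0716). The full-length corepressors Tle1 (0.50), Tle3 (0.20) and Tle4 (-0.39, log2) did not pass, although Tle3 averaged over its probe sets passed at 0.60 (limma adjusted p = 0.00711) and Tle1 passed without HAP1 at 0.73 (0.0392). Tle4 passed with array weights at -0.51 (0.0353).

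**Figure D4:**
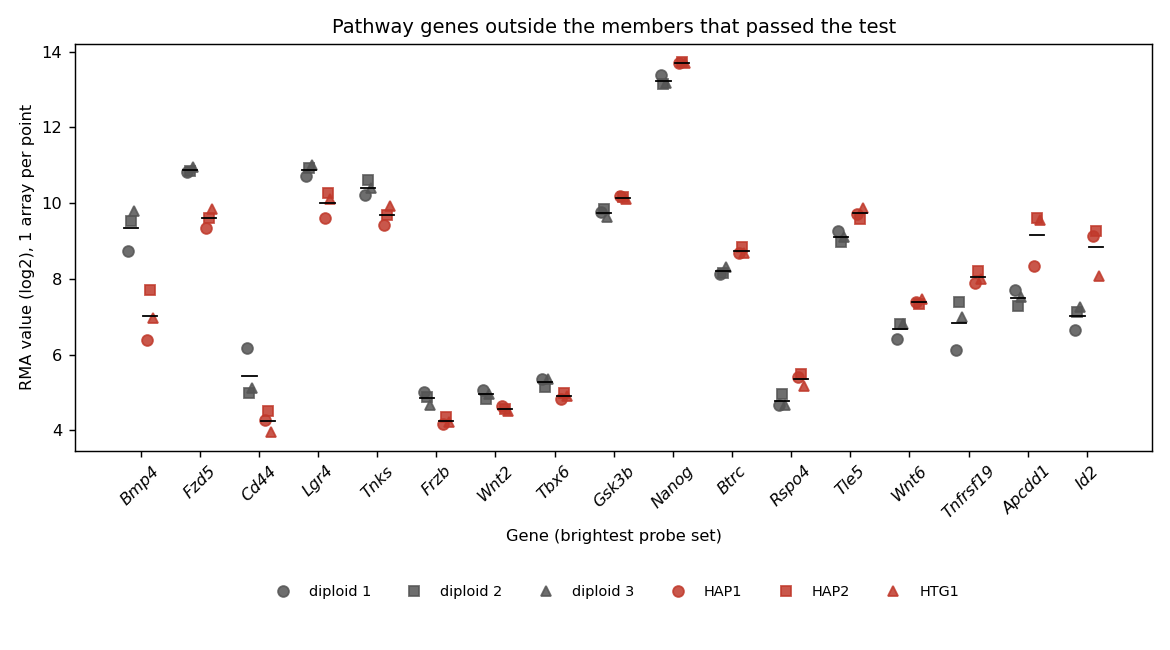
RMA value (log2) on each array of the 17 genes of the pathway lists that passed the test, ordered from the largest decrease to the largest increase; grey points are diploid, red points haploid and the bars are group means. The group means lie farthest apart for Bmp4, Id2 and Apcdd1.

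Of 20 other genes known as beta-catenin targets 3 rose and 3 fell, together 30%, against 14.9% of all genes. The list was chosen with earlier results of these data known. Leaving out diploid replicate 3, HAP2 or HTG1 gave 1 higher and 1 lower gene in it. The median difference was -0.06 (log2), against -0.03 over all genes. Id2, an inhibitor of basic helix-loop-helix factors that also answers to Bmp signals, stood at 6.66, 7.13 and 7.26 in the diploid samples and at 9.14, 9.27 and 8.09 in HAP1, HAP2 and HTG1, 3.53-fold higher (limma adjusted p = 0.0139). HTG1 was the lowest of the haploid lines. Apcdd1, a membrane protein that dampens Wnt signalling, rose 3.17-fold (limma adjusted p = 0.0202); the call was lost when diploid replicate 2, diploid replicate 3, HAP2 or HTG1 was left out (limma adjusted p = 0.0506 to 0.0783), and averaged over its probe sets it differed by 1.08 (log2). Bmp4, a ligand of another pathway, stood at 8.73, 9.53 and 9.78 in the diploid samples and at 6.39, 7.70 and 6.97 in HAP1, HAP2 and HTG1, 5.02-fold lower (limma adjusted p = 0.0105). Tnfrsf19, Cd44 and Tbx6 made up the rest. Tnfrsf19, a receptor of the tumour necrosis factor family, rose 2.31-fold and did not pass without diploid replicate 3 or any 1 haploid line (limma adjusted p = 0.0637 to 0.113), and averaged over its probe sets it differed by 0.77 (log2). Cd44 fell by 1.19 (log2) and lost its call without any 1 array other than diploid replicate 1 (limma adjusted p = 0.0632 to 0.116). Its call was also lost with a further quantile normalization (0.0571) and with every probe set tested (0.0537), and averaged over its probe sets it differed by -0.69. Tbx6 fell by 0.38 and lost its call when any 1 of the 6 arrays was left out (limma adjusted p = 0.0679 to 0.149), with a further quantile normalization (0.0734) and with every probe set tested (0.0558).

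Among 5 pluripotency genes known to be repressed by Tcf7l1, 1 rose, Nanog, 1.39-fold (limma adjusted p = 0.0227). Its call was lost when diploid replicate 2, diploid replicate 3, HAP2 or HTG1 was left out (limma adjusted p = 0.0522 to 0.0906). Esrrb (0.29), Tfcp2l1 (0.60), Nr0b1 (0.63) and Klf2 (-0.13, log2) did not pass. Nr0b1 lies on the X chromosome, and its difference turned to -0.14 (limma adjusted p = 0.708) with the chromosome shift taken out. Tfcp2l1 passed without HTG1, at 0.82 (limma adjusted p = 0.00981), and with array weights, at 0.69 (0.0253), but averaged over its probe sets it differed by 0.10. Klf2 passed without diploid replicate 1, at -0.44 (limma adjusted p = 0.0439). It lies on chromosome 8, and its difference turned to 0.19 (limma adjusted p = 0.614) with the chromosome shift taken out.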

How the data were processed

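The log2 values that the authors deposited come from RMA, per the submitters' processing notes, with 1 value for each probe set on each array. The software and its settings are not given in the sources used here. RMA usually brings arrays to a common distribution, which hides any change in total RNA per cell. Array medians lay between 6.31 and 6.34 (log2), and 6 arrays limit the precision.

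Of 45101 probe sets, 64 controls were left out, and 34945 had 1 symbol, 932 several and 9160 none in the platform annotation. Chromosomes came from RefSeq (GRCm38.p6) through Entrez numbers. The haploid and diploid arrays were fitted in R 4.3.3 by limma 3.58.1 (lmFit, eBayes, two-sided) with no covariate and no filter. Benjamini-Hochberg adjustment ran over all 18193 genes, and adjusted p-values for genes come from this fit. The HTG1 contrast used 3 groups (diploid, HAP1 with HAP2, HTG1). SE is the moderated standard error, and intervals of 95% use it. The steps were tested on simulated data. T had no single-symbol probe set and was not analysed here.

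The members and lists were chosen with earlier results of these data known. The text names all members and, from each other list, the 3 largest changes among genes that passed (fewer where fewer passed), or the 2 brightest genes where none passed, and the 3 genes most like each of Cdx1 and Tcf7l2. Ctnnb1, Tnfrsf19, Cd44, Wls, Col1a1, Col3a1, Lum, Znrf3, Wnt3a, Fzd7, Lrp6, Ccnd1, Myc and the Tle genes and Tcf7l1-repressed genes that did not pass were added after their values were seen. Alternatives tried were a further quantile normalization, alignment of the array medians, subtraction of chromosome shifts (per array, over genes above the median level), genes above the median level, other uses of the probe sets, other eBayes settings, array weights and omission of each array.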

Additional observations from a re-analysis of the deposited data

How the results depend on the processing

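In 15 alternatives, Cdx1, Tcf7l2 and Tcf7l1 kept their direction, and Cdx1 and Tcf7l2 passed in each that gave them a value. Among genes above the median level 1 member rose, since only 3 of the members remained to be tested and neither Cdx1 nor Tcf7l2 was among them, and 4 pathway genes outside the members fell. Of all genes above that level 1026 fell. With array weights 14 of these pathway genes rose and 14 fell, while over all genes 2008 rose and 1802 fell, against 1441 and 1266 in the main fit. With every probe set tested 5 pathway genes fell, against 1150 over all genes. Without 1 array the count of members that rose was 2 to 3, and 3 to 9 pathway genes rose and 2 to 12 fell. Over all genes these counts were 571 to 1395 higher and 399 to 1082 lower.

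For HTG1 against HAP1 and HAP2, 0 members passed in limma in any of 14 alternatives, with 1 member at an unadjusted p under 0.05 on all arrays. Over all genes 44 were higher and 24 lower in HTG1; among genes above the median level the counts were 11 and 15, with array weights 41 were lower, and without 1 array 21 to 81 were higher and 4 to 42 lower. No value could be had without HTG1. Of 35 named genes that passed, 12 passed in every alternative with a value. Many were named because their changes were large or their patterns were like Cdx1 or Tcf7l2. The counts therefore do not describe all genes that passed.

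No paired analysis was possible because the haploid titles carry line names and no replicate numbers that match the diploid ones. Rnf43 and several pathway genes lay near the lower quartile of the arrays, where a difference is hard to detect.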
